A study of Mus musculus with 10 samples.

Results

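Fatty acid binding proteins and fatty acid transporters were examined in livers of fasted mice labelled as wild type or as double knockout for macroH2A1 and macroH2A2. The set holds 9 of the 22180 genes that had a probe set of their own on the arrays: Fabp1, Fabp2, Fabp4, Fabp5, Fabp6, Fabp7, Slc27a1, Slc27a2 and Slc27a4. They were found by symbol, taking every probe set annotated to exactly 1 of them, which gave 13 probe sets (4 for Fabp5, 2 for Slc27a2 and 1 for each other gene). The genes were chosen by measured values as well as by family, with the log2 differences between these same 2 genotypes known, including that Fabp5 had the largest rise of all probe sets tested. Their differences and calls between genotypes are therefore given as a description and are not independent evidence.

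The samples were livers of male 129/S6 (taconic) mice aged 2 months, 5 wild type and 5 with the genotype macroH2A1 macroH2A2 double knockout, each measured on 1 array. Both groups were killed in the morning after a fast of about 16 h, so no fed liver was available for comparison. How the knockout alleles were made, which parts of the genes they remove and whether animals were pooled is not stated in the labels. MacroH2A proteins are histone H2A variants with a large non-histone domain. Values are log2 expression levels per probe set, on which a difference of 1 is a doubling. If samples did not come from separate mice, the p-values measure only the spread between samples, which may be technical.

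Long-chain fatty acids reach the liver from adipose tissue during a fast and from lipoproteins, where lipoprotein lipase frees them. Slc27 proteins, also called fatty acid transport proteins, take part in uptake at the cell surface or in internal membranes, and most couple fatty acids to coenzyme A. Inside the cell, fatty acid binding proteins, small barrel-shaped proteins of the cytosol, carry the water-insoluble fatty acids to membranes, enzymes and nuclear receptors of the PPAR family. Hepatocytes are known for Fabp1, whereas Fabp4 and Fabp5 are best known from adipocytes, macrophages, endothelium and, for Fabp5, epidermis.

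The 10 arrays had medians between 6.43 and 6.46 and correlated at 0.989 to 0.995. The 10 hepatocyte markers measured, among them Alb and Hnf4a, had list means of 12.79 to 12.97 in wild-type and 12.80 to 12.90 in double knockout livers. As a guide to background, the 1108 olfactory receptor probe sets, whose genes have no known use in liver, were taken, with a 95th percentile of 6.54. The Macroh2a1 probe set was lower in double knockout livers by 0.49 (SE 0.05, limma adjusted p = 0.00128), and Macroh2a2 had a difference of -0.20 (limma adjusted p = 0.514) at levels of 6.32 and 6.12, both below that guide. Macroh2a1 still measured 9.02 to 9.18 in double knockout livers, far above it. The place of these probe sets relative to the deleted parts is not known here, so neither level shows how much intact transcript is left. Exocrine pancreas markers stood high in 4 arrays, with list means of 8.96 and 9.95 in wild-type replicates 4 and 5 and of 7.94 and 8.21 in double knockout replicates 1 and 2, against 5.78 to 6.49 in the other 6. In whole liver, fewer cells of a type and less RNA per cell cannot be told apart.

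Of the 13 probe sets, 3 were called (limma adjusted p under 0.05), all of them probe sets of Fabp5 and all higher in double knockout livers. Counted by gene, 1 of 9 was called, and the called probe sets include a pair that ran in parallel on every array. Among the 25335 probe sets tested, 0.884% were called, 0.332% as higher and 0.553% as lower. The other 8 genes had 0 called probe sets in limma; of their 9 probe sets, Fabp4, Fabp7 and Slc27a1 had an unadjusted p under 0.05, a level that 15.1% of all tested probe sets reached. The median log2 difference of the 13 was 0.06, beside -0.003 over all tested probe sets. The 3 called probe sets were also the ones whose groups did not overlap, which was the case for 3.9% of all tested probe sets (1.75% with double knockout higher and 2.15% with it lower).

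Fabp5 encodes the epidermal fatty acid binding protein, which carries fatty acids and is known to pass ligands to PPARdelta. On its probe set of highest mean, 17548238, the wild-type livers measured 6.96, 6.51, 7.24, 6.49 and 6.18 (replicates 1 to 5). The double knockout livers measured 7.79, 9.61, 8.57, 8.04 and 8.57. Each double knockout liver thus lay above each wild-type liver, with replicate 2 furthest up, while wild-type replicates 2, 4 and 5 were below the olfactory receptor guide. Means were 6.68 ± 0.42 (SD, n = 5) and 8.51 ± 0.70 (SD, n = 5), a rise of 1.84 (SE 0.30, 95% interval 1.18 to 2.49, limma adjusted p = 0.0209), or 3.57-fold. With single arrays left out the rise ranged from 1.56 to 2.02. The call was lost without wild-type replicate 2 (1.79, limma adjusted p = 0.063) or without double knockout replicate 5 (1.82, limma adjusted p = 0.0581). Without the 4 arrays of high pancreas signal, which include double knockout replicate 2, the rise was smaller, 1.49 (limma adjusted p = 0.0431). All 3 calls of Fabp5 were kept there.

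The other three Fabp5 probe sets differed in level and in the size of the difference. Probe set 17548717 ran in parallel, with 6.79, 6.36, 7.08, 6.33 and 5.97 in wild-type and 7.64, 9.46, 8.39, 7.86 and 8.41 in double knockout livers. Its values lay 0.15 to 0.20 below those of 17548238 on every array, so the pair are not separate measurements of the gene. Counts of probe sets given here include both. It rose by 1.84 (SE 0.30, limma adjusted p = 0.0212), with wild-type replicates 2, 4 and 5 and the wild-type mean of 6.51 below the guide to background.

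Probe set 17396056 gave 6.20, 6.00, 6.07, 6.16 and 5.99 in wild-type and 6.34, 7.17, 6.56, 6.70 and 6.82 in double knockout livers. Here too the groups did not overlap, with all wild-type and 1 double knockout value below the guide to background. It rose by 0.63 (SE 0.12, limma adjusted p = 0.0365), and this call was lost in 7 of the 10 fits without 1 array: those without wild-type replicates 2, 3, 4 or 5 or double knockout replicates 3, 4 or 5 (limma adjusted p up to 0.104). Probe set 17404073 lay deep in the background range, with 4.46 to 4.73 in wild-type and 4.64 to 4.85 in double knockout livers. Its difference of 0.19 (SE 0.06, limma adjusted p = 0.168) was not called, and its groups overlapped. Which parts of Fabp5 or of related sequences the 4 probe sets cover is not known here.

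**Figure D1:**
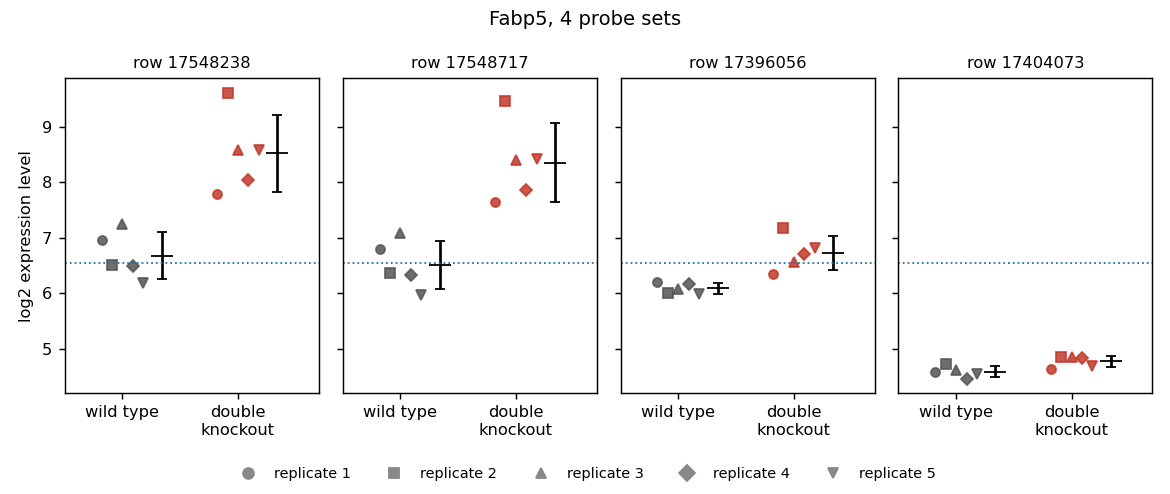
Log2 expression level (y axis) of the 4 Fabp5 probe sets in wild-type (grey) and double knockout (red) livers, 1 point per array with the symbol giving the replicate number, and bars for the mean ± SD of 5 arrays. The dotted line is the 95th percentile of olfactory receptor probe sets, 6.54; groups are apart in the first 3 panels and overlap in the fourth.

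Fabp5 also varied between samples of 1 genotype. The within-group SD of 17548238, 0.58, was at percentile 99.6 of all tested probe sets, and the double knockout livers alone spanned 7.79 to 9.61.

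Fabp4, the adipocyte fatty acid binding protein, measured 7.52, 7.86, 8.77, 8.60 and 8.40 in wild-type and 8.43, 8.94, 8.62, 8.47 and 9.60 in double knockout livers. Wild-type replicates 1 and 2 were lowest, double knockout replicates 5 and 2 lay above all wild-type values, and the other values of both groups lay among each other. The difference of 0.59 (SE 0.26, 95% interval 0.01 to 1.16) was not called (limma adjusted p = 0.319). With single arrays left out it ran from 0.39 (without double knockout replicate 5) to 0.72 (without wild-type replicate 3). It was 0.85 without the 4 arrays of high pancreas signal and was not called there either (limma adjusted p = 0.386). Like Fabp5, Fabp4 was among the most variable probe sets within groups, with an SD of 0.50 at percentile 99.3. Adipocyte markers gave list means of 6.81 to 7.09 in wild-type and 6.94 to 7.20 in double knockout livers, and 3 of the 5 measured, Adipoq, Plin1 and Lep, were below the guide to background. Cidec, a lipid droplet protein, had a mean level of 10.04 and a difference of 0.58 (limma adjusted p = 0.243), the 1 member of the list with an unadjusted p under 0.05, and is named after its value was seen. Deviations of Fabp4 from its group means had r = 0.24 with those of the adipocyte list (exact permutation p = 0.528) and r = -0.17 with those of the endothelial list (exact permutation p = 0.638). Without wild-type replicate 1 and double knockout replicate 5, the arrays farthest from the median of Fabp4, these were -0.36 and -0.14.

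Fabp4 and Fabp5 share a stretch of chromosome 3 with other genes of the family. In the RefSeq table of GRCm38.p6 the protein-coding genes there run Fabp5, Pmp2, Fabp9, Fabp4, Fabp12. Pmp2, a myelin protein of the family, had a difference of 0.07 (limma adjusted p = 0.755). For Fabp9, known from testis, it was -0.03 (limma adjusted p = 0.838), and for Fabp12 -0.04 (limma adjusted p = 0.773). The levels of these 3 genes, 4.54, 4.42 and 6.05 as means over the 10 arrays, were all below the guide to background.

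Fabp1, the fatty acid binding protein of hepatocytes, which also carries ligands to PPARalpha, was at 13.40, 13.25, 13.13, 13.24 and 13.20 in wild-type and at 13.24, 13.39, 13.29, 13.27 and 13.36 in double knockout livers. The groups covered nearly the same range, and the difference was 0.06 (SE 0.05, limma adjusted p = 0.638), with a 95% interval of -0.05 to 0.18. Fabp2, the intestinal form, which mouse liver also uses, gave 11.20, 11.03, 11.06, 11.08 and 10.98 in wild-type and 10.96, 10.83, 10.89, 10.71 and 11.36 in double knockout livers. In double knockout livers 4 values were below all wild-type values and the fifth, of replicate 5, was above them all. The difference of -0.12 (SE 0.10, 95% interval -0.34 to 0.10, limma adjusted p = 0.638) was not called. It was -0.22 without double knockout replicate 5 (limma adjusted p = 0.145) and -0.06 without double knockout replicate 4.

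Fabp6, the ileal protein that binds bile acids, was at 5.03 to 5.35 in wild-type and at 5.06 to 5.43 in double knockout livers, below the guide to background in all 10 arrays. Fabp7, best known from glia of the developing brain, was well above it, with 9.55, 9.32, 9.32, 9.38 and 9.33 in wild-type and 9.66, 9.91, 9.44, 9.37 and 9.62 in double knockout livers. Its difference of 0.22 (SE 0.09, 95% interval 0.02 to 0.42) was not called (limma adjusted p = 0.285), and its groups overlapped. It was 0.14 without double knockout replicate 2 and 0.08 without the 4 arrays of high pancreas signal. The 4 glial markers measured had list means of 6.02 to 6.18 in wild-type and 5.97 to 6.10 in double knockout livers, and 2 of them were below the guide.

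The transporters showed small differences. Slc27a2, a transporter and very long-chain acyl-CoA synthetase of liver, lay between 13.61 and 13.72 in wild-type and between 13.58 and 13.69 in double knockout livers, with a difference of -0.03 (SE 0.04, 95% interval -0.12 to 0.06, limma adjusted p = 0.803). Its other probe set, 17391089, had 0.02 (SE 0.04, limma adjusted p = 0.909). Slc27a4, a transporter best known from gut and skin, lay between 9.37 and 9.60 in wild-type and between 9.38 and 9.68 in double knockout livers. Its difference was 0.06 (SE 0.06, 95% interval -0.08 to 0.19, limma adjusted p = 0.739).

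Slc27a1, the transporter best known from muscle and fat, measured 8.80, 9.00, 8.87, 8.87 and 8.83 in wild-type and 8.92, 8.69, 8.60, 8.65 and 8.61 in double knockout livers. Below all wild-type values lay 4 double knockout values, while double knockout replicate 1 was among the wild-type values. The difference of -0.18 (SE 0.06, 95% interval -0.32 to -0.04) was not called (limma adjusted p = 0.212), and it was -0.27 without the 4 arrays of high pancreas signal.

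**Figure D2:**
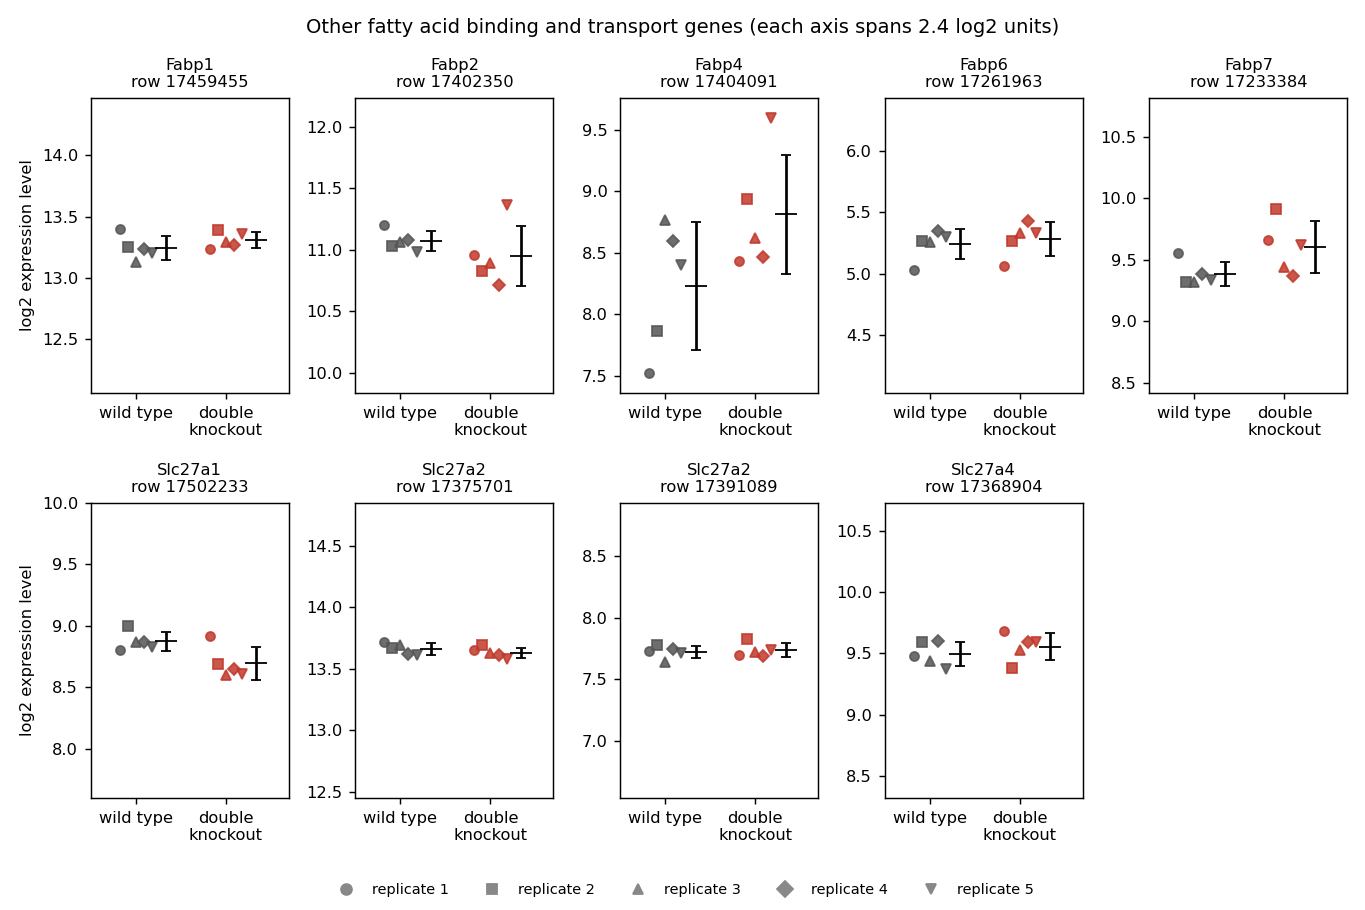
Log2 expression level (y axes, all of equal span) of the 9 probe sets of the other 8 genes in wild-type (grey) and double knockout (red) livers, 1 point per array with the symbol giving the replicate number, and bars for the mean ± SD of 5 arrays. The groups overlap in every panel, and Fabp4 has the widest spread within groups.

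Relatives of these genes were taken from a list of intracellular lipid binding proteins and Slc27 transporters outside the set, of which 11 of 12 were measured. In limma 0 of the 11 were called (lowest adjusted p 0.208), 1 had an unadjusted p under 0.05, and the median difference was 0.00. Only Fabp3 and Slc27a5 were above the guide to background. Fabp3, the heart form, had a difference of -0.03 (SE 0.09, limma adjusted p = 0.91), and -0.02 on its other probe set. Slc27a5, the liver transporter that also conjugates bile acids with coenzyme A, had means of 12.71 ± 0.04 and 12.60 ± 0.05 (SD, n = 5 each), a difference of -0.11 (SE 0.04) that did not pass (limma adjusted p = 0.208). Its groups did not overlap, with wild-type values from 12.67 and double knockout values up to 12.65. That was the case, with double knockout lower, for 2.15% of all tested probe sets.

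Among 20 measured genes of fatty acid uptake and activation, of 23 listed, limma called 0, while 1 had a higher and 3 a lower mean at an unadjusted p under 0.05. Over all tested probe sets 15.1% reached that level, and the median difference of the list was -0.02. Lowest in p were Acsm5, a medium-chain acyl-CoA synthetase, with -0.16 (SE 0.05, limma adjusted p = 0.159), and Acbd5, an acyl-CoA binding protein of peroxisomes, with -0.18 (SE 0.06, limma adjusted p = 0.182). Cd36, a fatty acid receptor and translocase, was added to the text after its value was seen, with 9.16 ± 0.40 and 9.23 ± 0.13 (SD, n = 5 each) and a difference of 0.07 (SE 0.16, 95% interval -0.27 to 0.42, limma adjusted p = 0.886).

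Of 10 measured genes that govern the release of fatty acids from lipoproteins, of 12 listed, limma called 1 higher and 1 lower. Over all tested probe sets these shares were 0.332% and 0.553%, and the median difference of the list was -0.09. The list had 2 higher and 2 lower means at an unadjusted p under 0.05, which 15.1% of all tested probe sets reached. The gene called higher was Lpl, lipoprotein lipase, whose values stand with those of Fabp5 and Marco. Lpl was chosen with earlier results of these data known. Apoa5, an apolipoprotein that favours lipase action, fell by 0.26 (SE 0.05, limma adjusted p = 0.0354). Angptl8, named after its value was seen, had the lowest difference of the list, -0.87 (SE 0.28), and was not called (limma adjusted p = 0.174). The PPAR list held the receptors and textbook targets such as Cpt1a and Plin2. Of its 18 measured genes, of 22 listed, limma called 0, and the median difference was 0.03. An unadjusted p under 0.05 was reached by 5 of them, beside 15.1% of all tested probe sets. Vnn1, a pantetheinase, had 0.53 (SE 0.13, limma adjusted p = 0.0751) and Pparg, the receptor PPARgamma, -0.40 (SE 0.10, limma adjusted p = 0.0846).

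**Figure D3:**
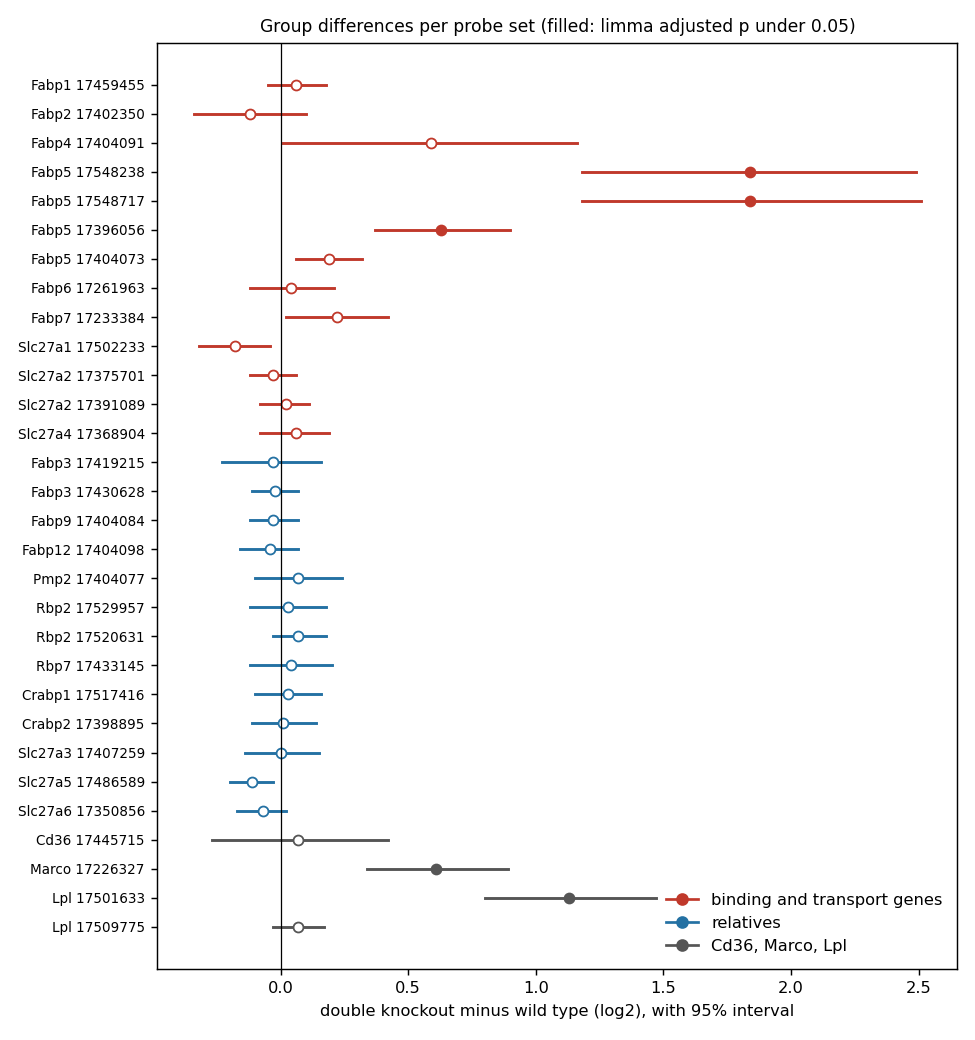
Difference between double knockout and wild-type means (x axis, log2) for each probe set of the 9 genes (red), of their relatives (blue) and of Cd36, Marco and Lpl (grey), with 95% intervals from limma and 5 arrays per group. Filled points were called at a limma adjusted p under 0.05: 3 Fabp5 probe sets, Marco and 1 of the 2 Lpl probe sets.

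Fabp5 was then set against Marco, a scavenger receptor of macrophages, and against Lpl, which were both higher in the same livers. Marco measured 6.63, 6.31, 6.68, 7.04 and 6.64 in wild-type and 7.27, 7.47, 7.29, 7.40 and 6.92 in double knockout livers, so that only double knockout replicate 5 and wild-type replicate 4 crossed. It was higher by 0.61 (SE 0.13, limma adjusted p = 0.0475), and this call was lost in 8 of 10 fits without 1 array (all but those without wild-type replicate 4 or double knockout replicate 5; limma adjusted p up to 0.118). The Marco call was also lost without the 4 arrays of high pancreas signal (0.66, limma adjusted p = 0.132). Wild-type Marco lay near the guide to background of 6.54, with a mean of 6.66 and replicate 2, at 6.31, below the guide. Lpl measured 7.88, 7.85, 8.38, 8.61 and 7.67 in wild-type and 9.12, 9.25, 9.17, 9.38 and 9.14 in double knockout livers. Its groups did not overlap. The rise was 1.13 (SE 0.15) with a limma adjusted p = 0.00686. A further Lpl probe set, with a mean of only 4.50, had a difference of 0.07.

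Because the groups were apart in Fabp5, a correlation pooled over the 10 arrays would mostly restate the difference between genotypes and is not given. Instead each value was taken as a deviation from its group mean, and pairs were permuted within groups. Family-wide adjustment was over 19 such relations. Fabp5 and Marco had r = 0.13 over the 10 arrays (exact permutation p = 0.714, adjusted p = 0.798) and rho = 0.02 (exact permutation p = 0.976). Without double knockout replicates 1 and 2, the arrays farthest from the median of Fabp5, r was -0.17. The liver with the highest Fabp5, double knockout replicate 2, also had the highest Marco, but wild-type replicate 4, with the highest wild-type Marco, had the second lowest wild-type Fabp5.

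Fabp5 and Lpl had r = 0.21 (exact permutation p = 0.483, adjusted p = 0.665) and rho = 0.28 (exact permutation p = 0.414), and r = 0.23 without the same 2 arrays. In the double knockout group Lpl stayed within 9.12 to 9.38 while Fabp5 ranged from 7.79 to 9.61. Within genotypes, then, a relation of Fabp5 with either gene was not detectable with 10 arrays.

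All 15 macrophage markers measured had higher means in double knockout livers. Of these, 2 were called, Cd163 and Marco, beside 0.332% called higher among all tested probe sets, and 8 had an unadjusted p under 0.05, beside 15.1%. Marco was chosen with earlier results of these data known, so its part in these counts is not independent. Of the 14 other markers only Cd163 was called. The median difference of the 15 was 0.22, with list means of 8.98 to 9.31 in wild-type and 9.22 to 9.54 in double knockout livers. As means over the 10 arrays, none of the 15 was below the guide to background. Deviations of Fabp5 had r = 0.49 with the mean of the 14 markers other than Marco (exact permutation p = 0.177, adjusted p = 0.561), and r = -0.10 without double knockout replicates 1 and 2. Endothelial markers, of which 7 of 10 had higher means and limma called 0 (1 at an unadjusted p under 0.05), had list means of 9.70 to 9.80 and 9.73 to 9.86. Of 6 epidermal markers 5 were below the guide, with list means of 5.99 to 6.12 and 5.99 to 6.14. The part of other cell types in the difference of Fabp5 was not tested.

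Of the 19 relations, 1 passed after adjustment, that between the parallel Fabp5 probe sets (r = 1.0, exact permutation p = 6.94e-05, the smallest possible, adjusted p = 0.00132). Probe set 17396056 had r = 0.80 with 17548238 (exact permutation p = 0.0233, adjusted p = 0.222) and 0.28 without double knockout replicates 1 and 2, whose removal also narrows the range of Fabp5. Across the 9 probe sets of the other genes, r with Fabp5 ran from -0.62 for Slc27a4 to 0.60 for Slc27a2, with exact permutation adjusted p of 0.396 or more. For Fabp4 it was 0.27 (exact permutation p = 0.467, adjusted p = 0.665).

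**Figure D4:**
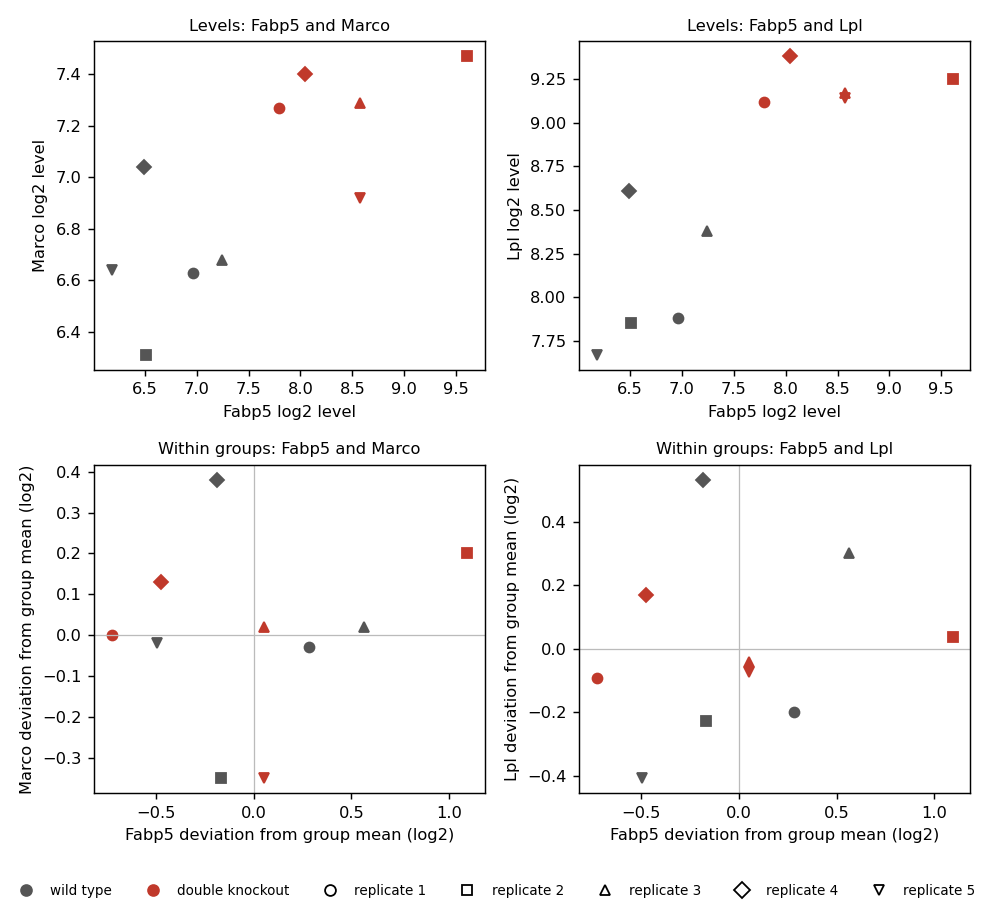
Top: log2 levels of Marco (left) and Lpl (right) on the y axis against Fabp5 probe set 17548238 on the x axis, 1 point per liver, wild type in grey and double knockout in red, with symbols for replicate numbers. Bottom: the same values as deviations from their group means, where r is 0.13 for Marco and 0.21 for Lpl.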

How the data were processed

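The deposited values were log2 expression levels per probe set on 10 arrays, for which the submitters' processing notes name Affymetrix Expression Console as the authors' program. Its version, the summarisation and the normalization are not stated there. Nearly equal medians show that arrays had been normalized before deposit. Scanner files and detection calls were not analysed here. Precision is limited by the number of arrays.

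Of 41345 rows, the platform annotation gave 23521 exactly 1 symbol, 1814 several and 16010 none. The 25335 rows with a symbol were fitted in limma 3.58.1 (R 4.3.3; lmFit, eBayes, two-sided, group as the only term), with Benjamini-Hochberg adjustment over all of them and calls at an adjusted p under 0.05, without a filter on level. A listed gene was represented by its probe set of highest mean. Correlations used deviations from group means, with exact permutation within groups (14400 arrangements, two-sided). Fits and correlations were tested on simulated data.

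The 9 genes, lists and tests were chosen with earlier results of these data known. Named were all probe sets of the 9 genes, their relatives, Marco, Lpl, the knocked-out genes, of each list up to 4 called genes or, with none called, the 2 of lowest p, and the 5 genes most like Fabp5. Alternatives covered eBayes options, array weights, normalization, filters, thresholds, a replicate block, the high-pancreas arrays and leaving out each array.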

Additional observations from a re-analysis of the deposited data

Results flagged for a closer look

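Of 32 groups of 5 arrays examined (13 probe sets of the 9 genes, Marco and both of Lpl, in each genotype), 3 held an array that lay far from the others by Dixon's criterion, which flags about 1 group in 20 by chance. Fabp6 in wild-type replicate 1 was at 5.03, against 5.26 to 5.35 in the other wild-type livers, all below the guide to background. Fabp7 in wild-type replicate 1 was at 9.55, against 9.32 to 9.38. Slc27a1 in double knockout replicate 1 was at 8.92, against 8.60 to 8.69, and was the only double knockout value within the wild-type range.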

How the results depend on the processing

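The 3 calls among the 13 probe sets became 1 with the robust option of eBayes (17396056 alone; the other two had adjusted p of 0.053 and 0.0541), 0 with every row of the table tested, 0 with a replicate block and 0 at a threshold of 0.01; leaving out 1 array gave 0 to 3. Over these fits the difference of 17548238 stayed between 1.49 and 2.02 and its limma adjusted p between 0.0133 and 0.068. In all fits 0 probe sets of the other 8 genes and 0 of the uptake list were called in limma. Over all tested probe sets the 224 calls became 377 with the filter on low levels, 75 with every row, 76 with the replicate block, 585 and 45 at thresholds of 0.10 and 0.01, and 68 without the 4 arrays of high pancreas signal. Without 1 array they numbered 64 (wild-type replicate 2) to 253 (double knockout replicate 1), with 144, 131, 135, 124, 68 and 87 without wild-type replicates 3 and 4 and double knockout replicates 2, 3, 4 and 5. Over all tested probe sets, deviations of arrays with equal replicate numbers correlated at -0.48, -0.31, 0.13, -0.09 and -0.13. The labels do not say whether equal numbers pair animals, and these values cannot decide it. Differences near 0 changed sign for Fabp6 (-0.01 without wild-type replicate 1; -0.01 to 0.10 over the fits without 1 array) and for Slc27a2 probe set 17391089 (-0.0044 without wild-type replicate 3, -0.01 without double knockout replicate 2; up to 0.03). The relations of Fabp5 turned to r = -0.25 with Marco and -0.20 with Lpl on probe set 17404073, and to -0.17 with Marco without the 2 farthest arrays. With 1 array left out r ran from -0.20 to 0.28 for Marco and from 0.02 to 0.44 for Lpl; with the replicate block it was 0.44 and 0.57 over 5 pairs (exact permutation p = 0.517 and 0.317). Apart from leaving out arrays and the choices named by their own construction (fewer or more rows, another threshold), the causes were not tested.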

Other observations

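The genes whose deviations from the group means most resembled those of Fabp5 over the 10 arrays were Otulin, which removes linear ubiquitin chains (r = 0.965), Hgfac, the activator of hepatocyte growth factor (0.956), Paip1, a partner of poly(A)-binding protein (0.92), Dus1l, a tRNA-modifying enzyme (0.914), and Rbm22, a splicing factor (0.913). They were the highest of 13062 probe sets with 1 symbol above the guide to background. They moved far less than Fabp5: Otulin, for instance, lay between 9.71 and 9.98 on all 10 arrays. Group differences are taken out of this order, so a high r does not mean a shared rise. Hgfac lay between 11.34 and 11.51 in wild-type and between 11.08 and 11.41 in double knockout livers. Double knockout replicate 2, at 11.41, was within the wild-type range, and the other double knockout livers were below it. Rbm22 lay between 9.43 and 9.51 in wild-type and between 9.42 and 9.58 in double knockout livers. Lpl ranked 3729 and Marco 4646 in this order, with 28.5% and 35.6% of probe sets having a higher r. All points share the same arrays and normalization, and with so many probe sets ranked over 10 arrays no p is given.

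Deviations of Fabp4 had r = 0.31 with the mean of the macrophage markers (exact permutation p = 0.409, adjusted p = 0.665) and r = 0.79 without wild-type replicate 1 and double knockout replicate 5, the livers farthest from its median (exact permutation p = 0.0469, not adjusted). With the same livers left out, the adipocyte and endothelial lists gave -0.36 and -0.14. For Fabp7 the value was 0.27 (exact permutation p = 0.49, adjusted p = 0.665), and -0.25 without double knockout replicates 2 and 4. Each of the 19 relations was also computed without the arrays farthest from the median. The exact permutation p = 0.0469 for Fabp4 was 1 of those, so it is not read as a relation.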
